A study of Mus musculus with 31 samples.

Results

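Lung miRNAs of female BALB/c mice, an inbred strain, were compared after 12 weeks of cigarette smoke and after 12 weeks of room air. The samples were chosen by their titles and are 3 smoke arrays and 4 control arrays, 7 of the 31 arrays of a series that also holds smoke and control lungs of 4, 6 and 8 weeks. Total RNA from whole lung was hybridised to 1-colour Agilent arrays that carry 611 mouse miRNAs among 650 in all, and 269 mouse miRNAs and 3 viral ones were bright enough to be tested. The labels used here give neither mouse age nor cigarette dose, and nothing in them says that each array holds a separate animal, so p-values speak only of the variation among these samples and that variation may be technical. The remaining 342 mouse miRNAs were too dim to test at any duration.

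A miRNA is a short RNA that guides an Argonaute protein to messenger RNAs and lowers their output, mainly by pairing through its seed, the bases 2 to 8 from its 5′ end. Several miRNAs are made in response to inflammatory signals: miR-146a and miR-146b are induced through NF-kB and repress Traf6 and Irak1, miR-21 is induced in inflammation and tissue remodelling, and miR-132 is transcribed under the control of CREB. Others mark cell types of the lung, such as the miR-200 family in epithelium, miR-449 in multiciliated cells of the airway, miR-126 in endothelium and miR-142, miR-150 and miR-223 in leukocytes. In whole lung RNA, fewer cells of a type and less of the RNA per cell cannot be told apart.

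The mature sequences below belong to some of the miRNAs that passed the test at 12 weeks, the rises first and the falls after them. They were taken from RefSeq (GRCm38.p6), which matched 19 of the 25 miRNAs that passed the test, and the seed is in capitals. The largest rise, miR-135b-5p, had no match and is missing here, as are miR-466b-3p, miR-467d-3p, miR-669f-3p, miR-669a_v15.0 and miR-709. They are grouped so that miRNAs with the same seed stand together.
miR-21-5p: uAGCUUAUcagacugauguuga
miR-146a-5p: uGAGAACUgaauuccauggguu
miR-146b-5p: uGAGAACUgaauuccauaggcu
miR-34a-5p: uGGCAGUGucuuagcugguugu
miR-449a-5p: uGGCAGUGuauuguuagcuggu
miR-132-3p: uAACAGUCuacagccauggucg
miR-31-5p: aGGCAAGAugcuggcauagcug
miR-31-3p: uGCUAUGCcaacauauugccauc
miR-195-5p: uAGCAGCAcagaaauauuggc
miR-497-5p: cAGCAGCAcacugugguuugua
miR-455-3p: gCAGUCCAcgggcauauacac
RefSeq lists the miR-21 entry as miR-21a, the miR-195 entry as miR-195a and the miR-497 entry as miR-497a. The miR-449a hairpin lies at chr13:113037534-113037624 on the plus strand within Cdc20b, a gene of multiciliated cells. The miR-21 hairpin lies at chr11:86584067-86584158 on the minus strand within Vmp1, a gene of autophagy. The hairpins of miR-497 at chr11:70234717-70234800 and of miR-195 at chr11:70235042-70235135 are neighbours on the plus strand.

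After 12 weeks of smoke, 14 miRNAs were higher and 11 were lower than in room air at a limma adjusted p of 0.05 (5.15% and 4.04% of the 272 tested, 9.19% together). The rises were led by miR-135b-5p, miR-449a-5p, miR-21-5p and miR-146b-5p, each over 1 log2 unit, and were followed by miR-34a-5p, miR-132-3p, miR-192-5p, miR-146a-5p and both arms of miR-31. The falls were smaller and were led by miR-455-3p and by miRNAs of the Sfmbt2 intron cluster, with miR-195-5p, miR-497-5p and the endothelial miR-126-3p among them. Values here are log2 signal relative to the array's 75th percentile of detected probes, so 0 is the brightness of that percentile and the floor of measurement is -6.74. Levels of different miRNAs were not compared with each other, since each has its own probe.

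Those 25 miRNAs had no overlap between the 3 smoke and the 4 control arrays, a pattern seen in 114 of all 272 tested (41.9%). Where groups do not overlap, the sign of each comparison within a slide is fixed, so the 3 slides that hold both groups add no check of direction. In 24 of the 25 every detected probe of the miRNA moved the same way. The exception was miR-188-5p, where 2 of 3 probes did. The median difference over all tested miRNAs was -0.08 log2, and it was 0.04 when arrays were scaled on all probes and 0.20 with no scaling. The split of higher and lower calls moved with it, being 19 higher and 9 lower on all probes and 5 higher and 0 lower without scaling.

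**Figure D1:**
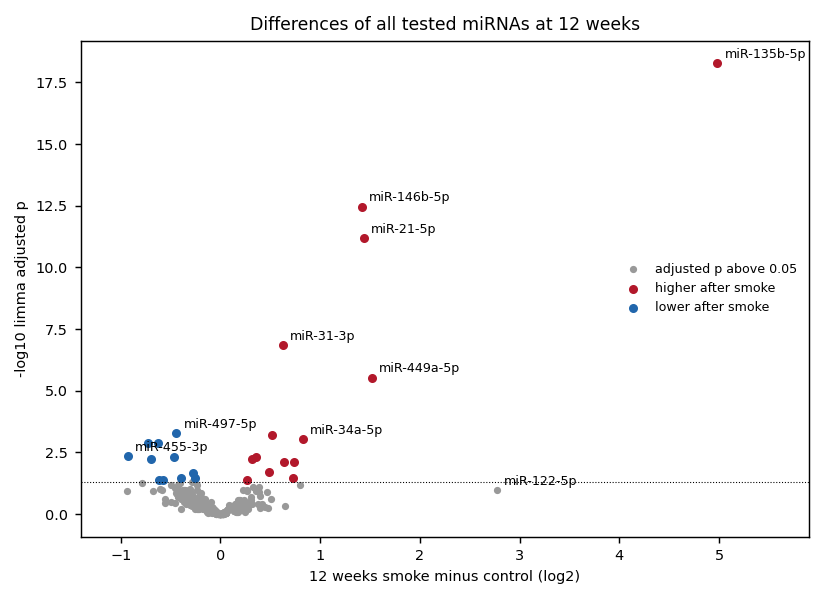
Each point is 1 of the 272 tested miRNAs, with its 12-week smoke minus control difference (log2) on the x axis and -log10 of its limma adjusted p on the y axis. Red points are the 14 higher and blue points the 11 lower miRNAs, and miR-135b-5p stands apart at 4.98 log2 while miR-122-5p lies far to the right below the dotted line at an adjusted p of 0.05.

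The spread was estimated from all 31 arrays. The median standard deviation of a miRNA between arrays was 0.115 among the 12-week smoke arrays and 0.073 among the 12-week controls, and 0.307 among the smoke arrays of 4 weeks, the widest group. When the 7 arrays of 12 weeks were fitted alone, 37 miRNAs were higher and 57 lower (13.6% and 21% of 272, 34.6% together), and 24 of the 25 were among them. The one that was not is miR-192-5p. Without smoke array 2 of 4 weeks, 39 miRNAs passed in the fit of the remaining arrays, the original 25 among them. With normexp background correction 4 passed, miR-21-5p, miR-34a-5p, miR-135b-5p and miR-146b-5p, and miR-449a-5p had an adjusted p of 0.094. When single arrays were left out, 17 of the 25 calls held throughout. The other 8 were lost without at least 1 array, namely miR-126-3p, miR-181c-5p, miR-188-5p, miR-192-5p, miR-494-3p, miR-669a_v15.0, miR-676-3p and miR-709. Each of these 8 was lost without control array 2 of 12 weeks and without 2 or more further arrays, and their highest adjusted p ran from 0.133 for miR-192-5p to 0.217 for miR-709. Arrays of 4, 6 or 8 weeks ended the call only for miR-188-5p, miR-676-3p and miR-709.

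Smoke array 3 stood apart from the other smoke arrays of 12 weeks. It held 655 outlier spots, against 336 and 347 on smoke arrays 1 and 2 and 383 to 426 on the controls. On it miR-122-5p, the dominant miRNA of liver, stood at 1.57 log2, while smoke arrays 1 and 2 and all 4 controls were at the floor and not above background. That value lies 6.27 log2 above the next highest array of the whole series. Another 5 miRNAs were over 1 log2 higher on it than the mean of smoke arrays 1 and 2, namely miR-133a-5p, miR-133b-3p, miR-192-5p, miR-194-5p and miR-205-5p. Results that rest on this array are given below with and without it. The smoke arrays always lay in the first line of positions on a slide and the control arrays in the second, so position and smoke cannot be told apart.

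The miRNAs that respond to inflammatory signals moved upward as a group. Of 9 tested members, 7 rose and 0 fell, with a median of 0.64 log2 that kept its sign under every scaling and background correction tried (0.31 to 0.96). The list was drawn up with results of these arrays known, so its direction is not independent evidence. The largest difference was in miR-135b-5p, which is induced by interleukin-1 receptor signalling in mouse lung. It stood at -1.57, -1.65 and -2.04 log2 on the smoke arrays, whereas all 4 controls lay at the floor of -6.74 and were not above background. The fitted difference was 4.98 ± 0.16 log2 (SE, limma adjusted p 5.31e-19), and because the controls have no measured level, the fold change is at least 26.3-fold. That bound sets the smoke mean against the mean of, per control array, the higher of the lowest detected signal and the probe's own. The SE comes from a spread shared by all arrays of the series. The controls of every duration were set to the floor and enter it without spread, which lowers the SE and the p-value.

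miR-21-5p had 4.96, 5.02 and 4.83 log2 on the smoke arrays, against 3.60, 3.35, 3.56 and 3.49 on the controls. Every smoke array lay more than 1 log2 above every control array. The difference was 1.44 ± 0.10 log2, or 2.71-fold (limma adjusted p 6.66e-12). miR-146b-5p had 0.80, 0.79 and 0.67 log2 after smoke and -0.69, -0.67, -0.67 and -0.62 in room air. Both groups were tight and far apart, and the difference was 1.42 ± 0.08 log2, or 2.68-fold (limma adjusted p 3.48e-13). Its relative miR-146a-5p, with the same seed, had 1.49, 1.48 and 1.43 log2 after smoke and 0.77, 0.83, 0.80 and 0.90 in room air, a rise of 0.64 ± 0.16 log2 (adjusted p 0.0077).

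miR-132-3p rose by 0.74 ± 0.18 log2 (adjusted p 0.0077), with smoke arrays at -5.02, -5.09 and -4.92 and controls at -5.92, -5.68, -5.72 and -5.65. miR-212-3p, made from the same transcript and with the same seed, differed by 0.02 ± 0.25 log2 and did not pass (adjusted p 0.996). Both arms of miR-31, a miRNA studied in epithelial growth, were higher. miR-31-3p differed by 0.62 ± 0.07 log2 (adjusted p 1.42e-07) and miR-31-5p by 0.52 ± 0.10 log2 (adjusted p 0.000656). For miR-31-3p the 3 smoke arrays fell between -5.07 and -5.04, while the controls ran between -5.78 and -5.59. miR-132-3p and miR-31-3p are dim, and with a floor 4 times higher both differences were 0. The array also carries miR-21-3p and miR-146b-3p, the other arms of miR-21 and miR-146b, which were too dim to test. miR-155-5p, a miRNA of activated leukocytes, differed by 0.32 ± 0.23 log2 (adjusted p 0.384).

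**Figure D2:**
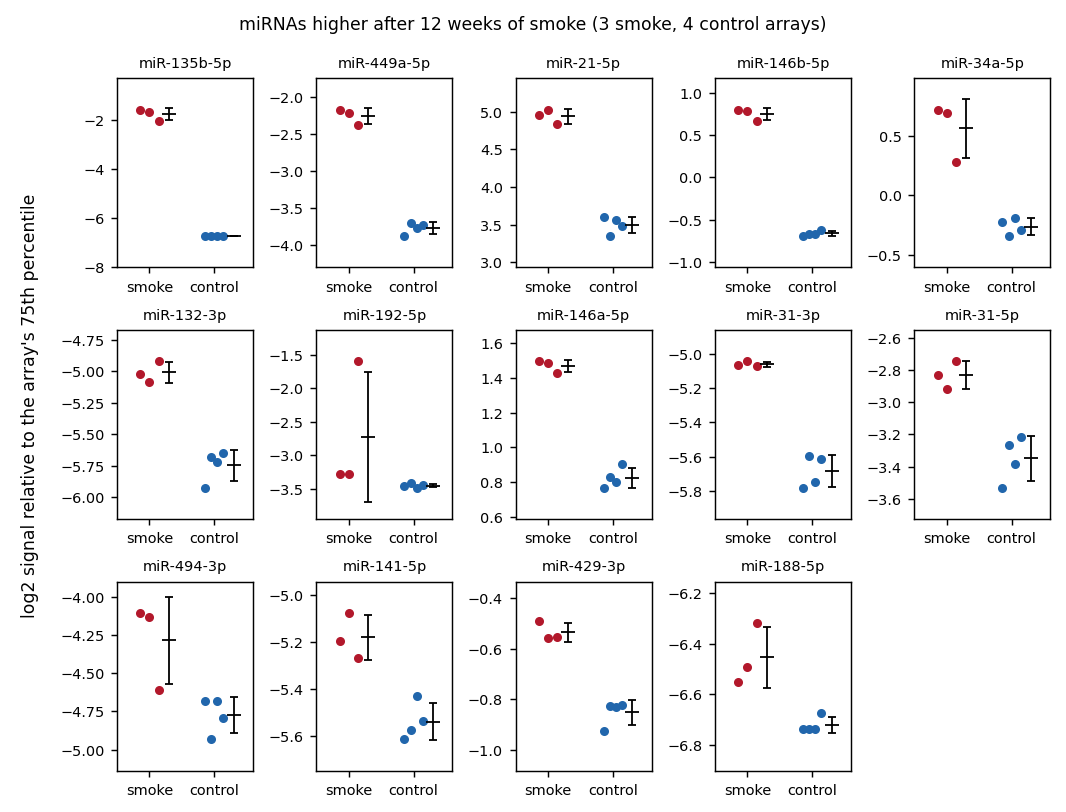
Each panel is 1 of the 14 miRNAs that were higher after 12 weeks of smoke, with 3 smoke arrays (red) left of 4 control arrays (blue) and the mean ± SD beside each group; the y axis is log2 signal relative to the array's 75th percentile and differs between panels. The controls of miR-135b-5p all sit at the floor of -6.74, and the miR-192-5p mean is carried by smoke array 3 at -1.60.

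miR-449a-5p and miR-34a-5p share a seed, and both rose. miR-449a-5p, which represses Notch signalling in cells that form cilia, had -2.17, -2.21 and -2.38 log2 after smoke and -3.88, -3.70, -3.78 and -3.74 in room air. No array of one group came near the other, and the difference was 1.52 ± 0.20 log2, or 2.87-fold (limma adjusted p 2.95e-06). miR-34a-5p, a transcriptional target of p53 that represses Sirt1, had 0.72, 0.69 and 0.28 log2 after smoke and -0.23, -0.34, -0.19 and -0.29 in room air. Smoke array 3 was lower than the other 2 smoke arrays but still above all controls, and the difference was 0.83 ± 0.16 log2 (1.77-fold, adjusted p 0.00094). Another miRNA with this seed, miR-34b-5p, differed by 0.42 ± 0.29 log2 and did not pass (adjusted p 0.382).

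The multiciliated list, with 5 tested members, held 1 rise, miR-449a-5p, and a median of 0.27 log2. Its other members did not pass: miR-34c-5p differed by 0.27 log2, miR-34c-3p by -0.11 and miR-34b-3p by -0.29. The p53 and DNA damage list held 2 rises among 3 tested members, miR-34a-5p and miR-192-5p. For miR-192-5p the smoke arrays stood at -3.29, -3.28 and -1.60 log2 and the controls between -3.48 and -3.42. Only smoke array 3 was far from the controls. The difference was 0.73 ± 0.22 log2 (adjusted p 0.034) with that array and 0.17 log2 without it (adjusted p 0.133), and the list's median was 0.73 with it and 0.17 without it. miR-194-5p, which is made with miR-192, differed by 0.39 ± 0.17 log2 (adjusted p 0.128) and by 0.01 log2 without that array. miR-122-5p differed by 2.77 ± 1.08 log2 (adjusted p 0.109), a value that comes wholly from smoke array 3. The part of other tissue in these values was not tested.

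Of 11 tested epithelial miRNAs 2 rose and 0 fell. The list's median of 0.31 log2 was above 0 under every scaling tried, but only 0.025 with normexp, where 5 of the 11 lay below 0. Both miRNAs that rose come from hairpins of the miR-200 family, which represses Zeb1 and Zeb2 and keeps cells epithelial. They do not share a seed: that of miR-141-5p is AUCUUCC and that of miR-429-3p is AAUACUG. The other arm of the miR-141 hairpin, miR-141-3p, differed by 0.40 ± 0.41 log2 and did not pass (adjusted p 0.579). miR-429-3p had -0.49, -0.56 and -0.55 log2 after smoke and -0.93, -0.83, -0.83 and -0.82 in room air, a difference of 0.32 ± 0.08 log2 (adjusted p 0.0057). miR-141-5p was higher by 0.36 ± 0.08 log2 (adjusted p 0.0048), with smoke arrays between -5.27 and -5.08 and controls between -5.61 and -5.43. Its difference was -0.0060 log2 with normexp and 0 with a floor 4 times higher. Both lost their call when arrays were scaled on all probes or not at all, with normexp, with summed signals and in the deposited table. miR-200b-3p and miR-200c-3p, which share the seed of miR-429-3p, differed by -0.09 and 0.04 log2 and did not pass. The miR-183 cluster, known from sensory epithelia, missed the threshold with 0.38 log2 for miR-182-5p, 0.33 for miR-183-5p and 0.31 for miR-96-5p (adjusted p 0.079, 0.080 and 0.282). All 3 of these passed in the fit of the 7 arrays, which called 13.6% of all 272 higher. For the squamous markers, miR-203-3p differed by -0.08 log2. miR-205-5p was not above background on any control, so its level there is only a bound. It had -6.57, -6.64 and -5.39 log2 after smoke, and smoke array 2 lay below control array 4 at -6.59, so the groups overlapped. The bound of 1.21-fold compares group means only, and the difference did not pass (limma adjusted p 0.592). Without smoke array 3 the fitted difference of 0.48 log2 was 0.07.

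Further rises were small. miR-494-3p, the one of 7 tested miRNAs of the imprinted Dlk1-Dio3 region that passed, had -4.11, -4.13 and -4.61 log2 after smoke and -4.93 to -4.68 in room air, a difference of 0.49 ± 0.13 log2 (adjusted p 0.019). miR-188-5p, encoded within Clcn5, was above background on 2 of 3 smoke arrays and on 0 of 4 controls. It differed by 0.27 ± 0.08 log2 (adjusted p 0.041), and its bound is at least 1.01-fold. Without smoke array 3 the difference was 0.20 log2 (limma adjusted p 0.143). With normexp the difference was -0.18 log2, and with a floor 4 times higher it was 0.

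The largest fall was in miR-455-3p, whose gene is known to lie within the collagen gene Col27a1. It had -3.71, -3.66 and -3.10 log2 after smoke and -2.66, -2.55, -2.59 and -2.45 in room air. Smoke array 3 was nearest to the controls but below each of them. The difference was -0.93 ± 0.21 log2, 0.526 of the control level (limma adjusted p 0.0046), and -1.12 log2 without smoke array 3.

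The miRNAs of the Sfmbt2 intron, a large repeat-derived rodent cluster, fell in 4 of 9 tested members and rose in 0. Among all 272 tested, 4.04% fell. The list's median of -0.39 log2 stayed below 0 under every scaling tried, reaching -0.07 without scaling. This list too was drawn up with results of these arrays known, so its direction is not independent evidence. miR-466b-3p had -6.72, -6.74 and -6.74 log2 after smoke and -5.93, -6.10, -5.94 and -6.06 in room air. The smoke arrays were at or next to the floor, so the fitted difference of -0.73 ± 0.15 log2 (adjusted p 0.0014) depends on where the floor is set, and it is 0 with a floor 4 times higher. miR-669f-3p was measured on all 7 arrays, at -4.78, -4.81 and -4.64 log2 after smoke and -4.23, -4.07, -4.05 and -4.11 in room air, a fall of 0.63 ± 0.13 log2 (adjusted p 0.0014). It lost its call when arrays were scaled on all probes or not at all and with normexp. miR-467d-3p differed by -0.70 ± 0.17 log2 (adjusted p 0.0059) and miR-669a_v15.0 by -0.39 ± 0.12 log2 (adjusted p 0.034). With a floor 4 times higher both of these differences were also 0. miR-669a_v15.0 lost its call under 9 of 15 other settings, and without smoke array 3 its adjusted p was 0.061. These 2 and miR-466b-3p were detected on 2 of 3 smoke arrays and on all 4 controls. Probes for near-identical members of this cluster may share signal.

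**Figure D3:**
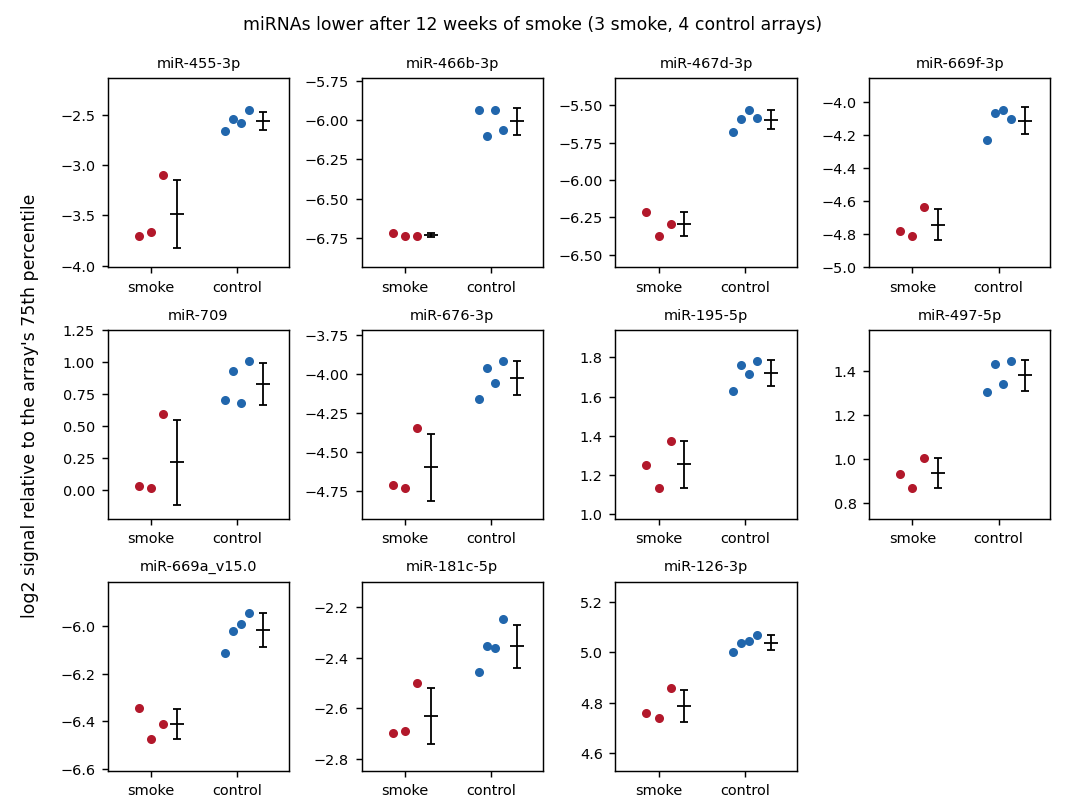
Each panel is 1 of the 11 miRNAs that were lower after 12 weeks of smoke, with 3 smoke arrays (red) left of 4 control arrays (blue) and the mean ± SD beside each group; the y axis is log2 signal relative to the array's 75th percentile and differs between panels. miR-466b-3p lies at the floor after smoke, and smoke array 3 is the highest smoke array for miR-455-3p, miR-709 and miR-676-3p.

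miR-195-5p and miR-497-5p, neighbours on chromosome 11 that share the seed of miR-15 and miR-16 and repress cyclins, fell together. miR-195-5p had 1.25, 1.14 and 1.38 log2 after smoke and 1.63, 1.76, 1.72 and 1.78 in room air, a difference of -0.47 ± 0.11 log2 (adjusted p 0.0048). miR-497-5p had 0.93, 0.87 and 1.00 log2 after smoke and 1.30, 1.43, 1.34 and 1.44 in room air, a difference of -0.44 ± 0.08 log2 (adjusted p 0.000516). Both lost their call when arrays were scaled on all probes or not at all and with normexp (limma adjusted p 0.161 and 0.142 with normexp). Other miRNAs with this seed did not pass: miR-15a-5p differed by 0.12 log2, miR-15b-5p by -0.08, miR-16-5p by 0.00 and miR-322-5p by -0.06. No direction is given for the 8 tested members as a list, because its median of -0.07 log2 turned to 0.07 when arrays were scaled on all probes.

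miR-126-3p, made from the endothelial gene Egfl7, had 4.76, 4.74 and 4.86 log2 after smoke and 5.00, 5.04, 5.05 and 5.07 in room air, a fall of 0.25 ± 0.08 log2 (adjusted p 0.034) that became 0.069 log2 without scaling. With slide as a block its adjusted p was 0.061. The other arm, miR-126-5p, differed by 0.00 ± 0.09 log2. miR-181c-5p, of a family active in lymphocyte development, fell by 0.28 ± 0.08 log2 (adjusted p 0.021), which became 0.04 log2 without scaling. miR-181a-5p, miR-181b-5p and miR-181d-5p, with the same seed, differed by -0.31, -0.29 and -0.20 log2 and did not pass (adjusted p 0.126, 0.150 and 0.135). miR-709 and miR-676-3p, the second encoded within Eda, fell by 0.61 ± 0.19 and 0.57 ± 0.18 log2 (adjusted p 0.041 and 0.042). With slide as a block miR-676-3p had an adjusted p of 0.053.

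Leukocyte miRNAs did not move as one. Of 11 tested members 1 rose, miR-146a-5p, and 0 fell. The median of -0.29 log2 became 0.03 without scaling, below the 0.20 of all miRNAs under that setting. miR-150-5p, of mature lymphocytes, had -2.03, -2.10 and -1.71 log2 after smoke and -1.33, -1.12, -1.13 and -1.05 in room air. The groups did not overlap, yet the difference of -0.79 ± 0.26 log2 lay just above the threshold (adjusted p 0.055), as did miR-30d-5p at -0.28 ± 0.09 log2 (adjusted p 0.053) and miR-186-3p at -0.41 ± 0.14 log2 (adjusted p 0.055). miR-142-5p, of all blood lineages, differed by -0.67 ± 0.27 log2 (adjusted p 0.115), and the myeloid miR-223-3p by -0.25 ± 0.30 log2 (adjusted p 0.624). In the fit of the 7 arrays, 2 of the 11 leukocyte miRNAs were higher and 5 lower, when 13.6% and 21% of all 272 were.

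Several families of abundant lung miRNAs had no member past the threshold. All 10 miR-30 family members differed below 0, between -0.36 and -0.10 log2, and 9 of them did not overlap between groups. Among all 272 tested, 169 differed below 0, and 25.4% were lower without overlap. The fit of the 7 arrays placed 7 of the 10 family members among its 57 lower miRNAs (21% of 272). The family's median of -0.25 log2 became 0.05 without scaling, again below that of all miRNAs. The miR-23-24-27 clusters (7 tested, median -0.31), let-7 (13 tested, median -0.22), the smooth muscle and mesenchymal list (11 tested, median -0.24) and the miR-99, miR-100 and miR-125 families (7 tested, median -0.23) had 0 calls, and each median lay between 0.01 and 0.10 without scaling. The brightest members of these lists included let-7f-5p, which differed by -0.01 ± 0.13 log2, let-7a-5p by -0.15 ± 0.17, miR-23a-3p by -0.31 ± 0.17, miR-125b-5p by -0.30 ± 0.17 and miR-199a-3p by 0.06 ± 0.09. The miR-29 family, which represses collagens, had 0 of 6 and a median of -0.12 log2, which became 0.02 on all probes. Its brightest member, miR-29a-3p, had 3.36, 3.25 and 3.33 log2 after smoke and 3.38, 3.52, 3.49 and 3.51 in room air, a difference of -0.16 ± 0.08 log2 (adjusted p 0.247). The miR-17 clusters had 0 of 12 and a median of 0.14 log2, with miR-19b-3p at -0.07 ± 0.11 and miR-92a-3p at -0.30 ± 0.18 log2.

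The hypoxia marker miR-210-3p differed by -0.14 ± 0.13 log2 (adjusted p 0.513). The erythroid miRNAs miR-451 and miR-144-3p differed by 0.19 ± 0.11 and 0.64 ± 0.56 log2, and neither passed. For the 5 tested striated muscle miRNAs 0 passed, and their median was 0.18 log2 with smoke array 3 and -0.17 without it. miR-133b-3p differed by 0.16 log2 with that array and -0.18 without it, and miR-133a-5p by 0.18 and -0.17. miR-1a-3p, of heart and skeletal muscle, had 0.24, 0.22 and 0.96 log2 after smoke and between -0.01 and 0.15 in room air. The neural markers miR-128-3p and miR-219-5p differed by -0.08 and 0.03 log2, and miR-219-5p was not above background in any control.

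**Figure D4:**
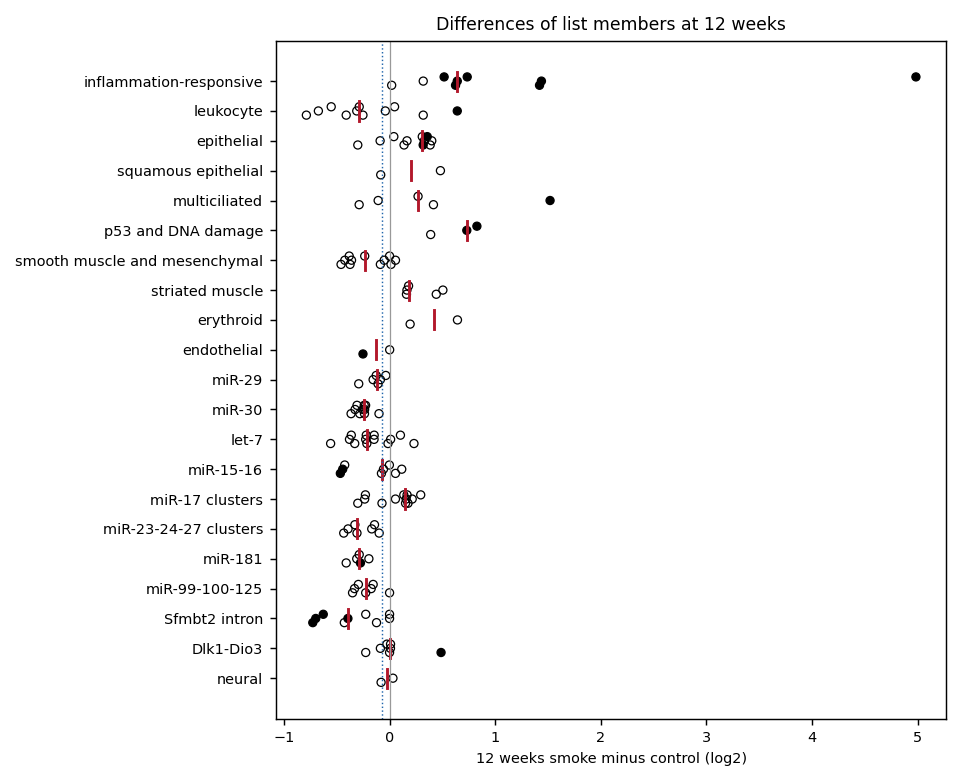
Each point is a tested member of a miRNA list (y axis), placed at its 12-week smoke minus control difference (log2, x axis); filled points passed at a limma adjusted p of 0.05, red bars are list medians and the dotted line is the median of all tested miRNAs, -0.08. The inflammation-responsive list holds 7 filled points, all above 0, and the Sfmbt2 intron list 4, all below 0. Without scaling, the medians of the leukocyte, smooth muscle, miR-30, let-7, miR-23-24-27, miR-181, miR-29, endothelial and miR-15-16 lists, and of the list of miR-99, miR-100 and miR-125, lie above 0.

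The 12-week differences were then set beside those of 4, 6 and 8 weeks, which share no array with them. Of the 25 miRNAs, 21 differed in the same direction at 4 weeks, 23 at 6 weeks and 23 at 8 weeks. Among all 272 tested, 128 did so at 4 weeks, 187 at 6 weeks and 189 at 8 weeks. The same test also called 13 of the 25 at 4 weeks, 11 at 6 weeks and 11 at 8 weeks, when it called 38.2%, 8.09% and 10.7% of all 272. miR-132-3p, miR-21-5p, miR-135b-5p and miR-146b-5p passed at all 4 durations. At 12 weeks alone 5 passed, namely miR-126-3p, miR-192-5p, miR-455-3p, miR-676-3p and miR-709, which does not show that they differ from other durations. Across the 272 miRNAs the 12-week differences correlated with those of 4, 6 and 8 weeks at a Pearson r of 0.42, 0.81 and 0.71, and at 0.20, 0.67 and 0.50 without miR-135b-5p. These describe miRNAs on shared slides, which are not independent.

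The difference between the 12-week effect and the mean effect of 4, 6 and 8 weeks was tested for each miRNA, and 2 of 272 passed (0.735%), while 34 had an unadjusted p under 0.05. miR-449a-5p differed between smoke and control by -0.09 log2 at 4 weeks, 0.86 at 6, 0.39 at 8 and 1.52 at 12 weeks, so the 12-week effect was larger by 1.13 ± 0.23 log2 (limma adjusted p 0.0098). Its smoke groups averaged -2.70 ± 0.27, -2.32 ± 0.25, -2.57 ± 0.34 and -2.25 ± 0.11 log2 at 4, 6, 8 and 12 weeks (SD, n = 4, 4, 4 and 3). Its control groups averaged -2.61 ± 0.09, -3.18 ± 0.47, -2.96 ± 0.22 and -3.77 ± 0.08 log2 (SD, n = 4 each). The 12-week group was thus the highest of the smoke groups and the lowest of the control groups. The smoke groups overlapped between durations. The 12-week controls did not: they lay between -3.88 and -3.70 log2, below every control array of the other durations, the lowest of which was -3.60 at 6 weeks. The larger difference at 12 weeks therefore rests on lower controls as well as on the smoke arrays.

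miR-135b-5p differed by 3.95, 4.41, 4.10 and 4.98 log2 at 4, 6, 8 and 12 weeks, and the 12-week effect was larger by 0.83 ± 0.18 log2 (limma adjusted p 0.018). With all controls at the floor, this compares the smoke arrays, which averaged -2.79 ± 0.30, -2.32 ± 0.04, -2.64 ± 0.48 and -1.76 ± 0.25 log2 at 4, 6, 8 and 12 weeks (SD, n = 4, 4, 4 and 3). The controls enter the shared spread without any of their own, which lowers the SE of 0.18 and the adjusted p. Neither call held when the 12-week effect was set against 6 and 8 weeks alone, nor when smoke array 1 or smoke array 2 of 12 weeks was left out, when the highest adjusted p was 0.068 for miR-449a-5p and 0.140 for miR-135b-5p. Column on the slide is the duration, so position and duration cannot be told apart.

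For other leading miRNAs the 12-week effect was not shown to differ. miR-21-5p was larger by 0.32 ± 0.11 log2 (adjusted p 0.258) and miR-146b-5p by 0.24 ± 0.09 log2 (adjusted p 0.306). miR-455-3p differed by -0.25, -0.53, -0.10 and -0.93 log2 at 4, 6, 8 and 12 weeks, a gap of -0.63 ± 0.24 log2 (adjusted p 0.306). miR-195-5p differed by 0.16 log2 at 4 weeks and -0.47 at 12 weeks, with a gap of -0.36 ± 0.12 log2 (adjusted p 0.258). In size, 16 of the 25 had their largest difference at 12 weeks, which is also the duration that chose them.

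**Figure D5:**
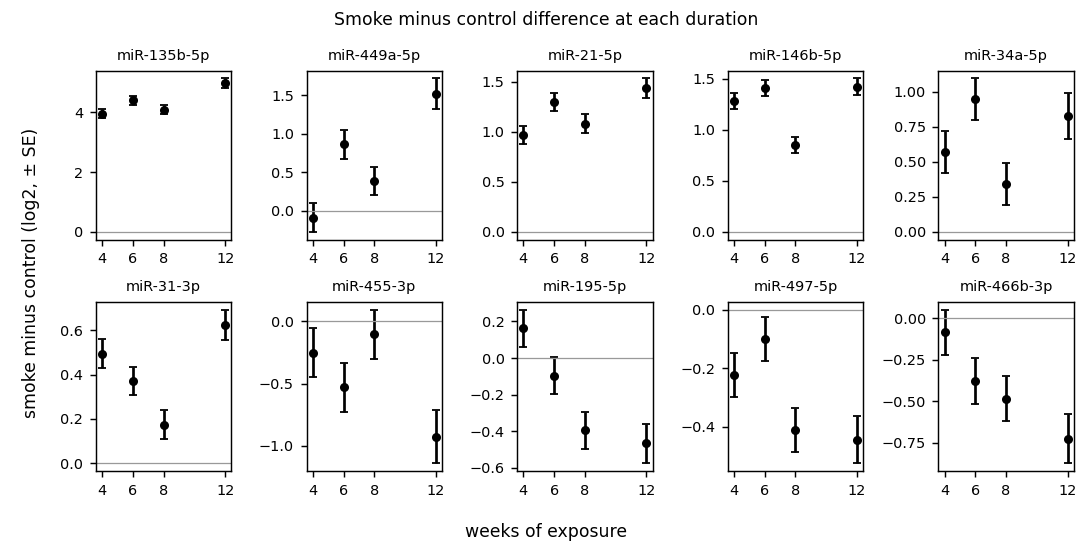
Each panel is 1 miRNA, with weeks of exposure on the x axis and the smoke minus control difference (log2, ± SE of the fit) on the y axis, whose range differs between panels; the grey line is 0. miR-449a-5p moves between -0.09 at 4 weeks and 1.52 at 12 weeks, while miR-21-5p and miR-146b-5p are clearly above 0 at every duration.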

How the data were processed

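The deposited scanner files give spot intensity after background subtraction and spatial detrending in Feature Extraction 10.7.3.1, per the file headers, with no step between arrays. The authors' deposited table of log2 values, whose normalization the sources used here do not state, served as an alternative. Spot quality marks (0 or 1) are the scanner software's, per the file headers. Outlier and control spots were left out, the spots of a probe averaged, and arrays scaled to the 75th percentile of the 385 probes that every one of the 31 arrays detected. Values under the floor (log2 -6.74) were set to it. The brightest of a miRNA's probes was used, and a miRNA was tested if detected (50% of spots above background) on 75% of the arrays of any group. At 12 weeks that percentile was 2029, 1874 and 1341 intensity units on smoke arrays 1, 2 and 3 and 1062 to 1579 on controls, and 231 to 253 miRNAs were detected on smoke arrays against 222 to 236 on controls.

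The model (limma 3.58.1 in R 4.3.3) had a mean for each of 8 groups and 23 residual degrees of freedom, and p-values were adjusted by Benjamini and Hochberg over all 272. The model fit was tested on simulated data. The files have no mean spot signal, so the normexp alternative used spot and background medians with an offset of 50. Other alternatives were other scalings, summaries, filters and floors, slide and replicate blocks, array weights, the 7 arrays alone and each array left out. The members and lists were chosen with earlier results of these data known. The text names the largest rises and falls, list members that passed, miR-21, miR-132, miR-135b and miR-146b and the 3 next above the threshold. Lists with no call are shown by 1 or more of their up to 4 brightest members. Other list members are named as contrasts, chosen after their values were seen. The number of arrays limits the precision.

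Samples were grouped by title. Same-numbered smoke and control arrays of 12 weeks did not deviate together (correlations 0.17, -0.42 and -0.47), so the numbers were not used to pair them. Arrays of the same slide correlated at -0.05, 0.45 and 0.49. Pairs that shared neither number nor slide ran from -0.48 to 0.51, so the same-slide values do not stand out.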

Additional observations from a re-analysis of the deposited data

Results flagged for a closer look

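Among the 64 sets of 4 control arrays that were tested, 5 held 1 array far from the other 3 by Dixon's test, and chance alone gives about 1 in 20. miR-125a-5p was low on control array 1 (0.12 log2, against 0.38 to 0.42 on the others) and so was miR-429-3p (-0.93, against -0.83 to -0.82). miR-1a-3p was high on control array 4 (0.15, against -0.01 to 0.00). miR-188-5p was also marked there (-6.68), but the others were set to the floor, so any value above it would be, and none of the 4 was above background. miR-29c-3p was high on control array 3 (1.82, against 1.72 to 1.73). Groups of 3 arrays, the smoke group among them, were not tested this way.

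By a limma contrast, the 12-week smoke effect differed from the mean effect of 4, 6 and 8 weeks in miR-449a-5p (1.13 log2 larger) and in miR-135b-5p (0.83 log2 larger). Neither call held against 6 and 8 weeks alone, with scaling on all probes, with no scaling or with normexp. Both were also lost without smoke array 1 or smoke array 2 of 12 weeks.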

How the results depend on the processing

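The 25 calls at 12 weeks became 28 with scaling on all probes (16 shared), 45 with quantile normalization (23 shared), 5 with no scaling, 4 with normexp background correction, 40 with summed signals (15 higher, 25 lower), 47 in the deposited table (16 higher, 31 lower), 15 with a floor 4 times higher, 172 with array weights and 94 with the 7 arrays alone. With replicate number as a block 22 miRNAs were called, all shared with the 25, and with slide as a block 23. The replicate block lost miR-126-3p, miR-676-3p and miR-709 (adjusted p 0.065, 0.065 and 0.059) and the slide block lost miR-126-3p and miR-676-3p. Chosen after seeing the data, the 7 arrays without smoke array 3 gave 142 calls and all arrays without smoke arrays 2 and 3 of 4 weeks gave 47. Leaving out 1 array gave between 17 (without control array 2 of 12 weeks) and 39 calls (without smoke array 2 of 4 weeks). In these fits 17 of the 25 calls always passed, and miR-135b-5p, miR-146b-5p and miR-21-5p passed under every setting that could test them. miR-135b-5p differed by 2.72 log2 with normexp and 2.98 log2 with the higher floor. Normexp also kept miR-34a-5p and turned miR-141-5p to -0.0060 and miR-188-5p to -0.18 log2; no scaling turned miR-126-3p to 0.069 and miR-181c-5p to 0.045 log2, and the cause was not tested. For the difference between 12 weeks and the other durations, the 2 calls became 0 with scaling on all probes, no scaling, normexp or 6 and 8 weeks alone, where 28, 21, 8 and 22 miRNAs had an unadjusted p under 0.05. They became 4 with quantile normalization, 1 with summed signals, the deposited table, no detection filter or detection on every array, 87 with array weights, 2 with the replicate block and between 0 and 3 with 1 array left out. Signals near the floor, such as those of the Sfmbt2 cluster, miR-188-5p and miR-31-3p, limit what can be measured: with the higher floor miR-31-3p, miR-132-3p, miR-141-5p, miR-188-5p, miR-466b-3p, miR-467d-3p and miR-669a_v15.0 had a difference of 0.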

Other observations

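Another 89 of the 247 miRNAs that did not pass at 12 weeks also had no overlap between smoke and control arrays. The 2 largest differences among those that the fit of the 7 arrays called were picked after their values were seen. miR-193-3p had -2.59, -2.40 and -2.15 log2 after smoke and -1.30, -1.60, -1.42 and -1.46 in room air, a difference of -0.94 ± 0.39 log2 with limma adjusted p 0.119 over all arrays and 0.0044 over the 7. miR-551b-3p had -5.74, -5.77 and -6.28 log2 after smoke and lay between -6.74 and -6.70 in room air, a difference of 0.80 ± 0.27 log2 with limma adjusted p 0.067 over all arrays and 0.0079 over the 7.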
